A study of Homo sapiens with 4 samples.

Results

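The m6A peaks of 6 genes that act in RNA decay, XRN1, XRN2, EXOSC10, CNOT1, UPF1 and DCP2, were examined in H1975, an established human lung adenocarcinoma cell line. Members were the peaks whose summit lay in the hg19 window of 1 of these genes, which gave 6 of 9441 peaks in cells given a control shRNA (NC-sh) and 5 of 12252 in cells given an shRNA against METTL3 (METTL3-sh), 11 of 21693 in all. In MeRIP-seq, RNA fragments that carry m6A are pulled down with an antibody and read beside untreated fragments (Input). The series held 4 samples, an Input and a MeRIP library from NC-sh and from METTL3-sh, with 48 h of lentiviral interference according to the labels, where METTL3 is the catalytic part of the m6A methyltransferase of mRNA. The shRNAs act in all infected cells of a culture, and neither the number of cultures nor the remaining METTL3 level was analysed here. The series' own description mentions replicates, but the labels list 1 library of each kind, so differences between NC-sh and METTL3-sh could not be set against replicates and carry no p-value. Peak names in both lists carry the prefix H1299, in 9441 of 9441 and 12252 of 12252 peaks. H1299 is another line, which the study lists among its lung adenocarcinoma lines. The cell line and condition given here follow the sample labels.

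mRNA decay in the cytoplasm usually starts when the CCR4-NOT complex shortens the poly(A) tail. The cap is then removed and the body is degraded from the 5′ end, or the RNA exosome degrades it from the 3′ end. Several m6A readers act by bringing such machinery to methylated transcripts, and YTHDC2, the reader at the centre of the study, is known to bind XRN1. XRN1 is the cytoplasmic 5′-3′ exonuclease and XRN2 its nuclear counterpart. DCP2 is the catalytic subunit of the decapping enzyme. EXOSC10 is a 3′-5′ exonuclease of the nuclear exosome, and the study deleted EXOSC10 and XRN2 in other experiments to ask which of them YTHDC2 needs. CNOT1 is the scaffold of CCR4-NOT and has no nuclease activity of its own, and UPF1 is the RNA helicase of nonsense-mediated decay, so not all 6 are decay enzymes in the strict sense. Peaks in these genes report on methylation of their own transcripts, not on their activity.

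The study's reagent list gives 1 METTL3 shRNA, whose sequence is shown because the knockdown defines the comparison.
h-sh-METTL3: gctgcacttcagacgaattat

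Each peak is described by a few values. Pileup counts the MeRIP reads over the summit after scaling, with 1 read worth 0.327 in NC-sh against 0.364 in METTL3-sh, so that reads at the summit could be recovered. The local expectation is the height that the Input predicts at the same place, in pileup units. Fold enrichment is pileup over local expectation after adding 1 to both, and is given without a unit. The −log10 q is the peak caller's own confidence within a library. Both lists hold only peaks with a fold enrichment above 6, and numbers missing from the peak names mark peaks that had been called but are not in the lists. A gene without a peak was therefore not shown to lack m6A. Deposited peaks had a median of 169 reads at the summit in NC-sh against 132 in METTL3-sh, and intervals below cover counting error only.

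Peaks were found in 4 of the 6 genes. EXOSC10 and DCP2 had peaks in both libraries, CNOT1 had a peak in NC-sh and UPF1 had a peak in METTL3-sh. XRN1 and XRN2 had none in either. Neither exonuclease of the 5′-3′ direction thus had a deposited peak, although the XRN1 window, chromosome 3 from 142025 to 142167 kb, was the longest of the 6 at 142 kb. For XRN2, chromosome 20 from 21283 to 21371 kb, the nearest NC-sh summits lay 140216 bp before and 110658 bp after the window. These flanking peaks carried the consecutive numbers 8826 and 8827, so that no numbered NC-sh peak was left out at XRN2. In METTL3-sh the flanking peaks of XRN2 were 11513 and 11515, with 1 number missing between them. Around XRN1, 3 numbers were missing in NC-sh and 2 in METTL3-sh, over gaps that reach beyond the gene, so that a peak left out of the lists may have stood there.

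**Figure D1:**
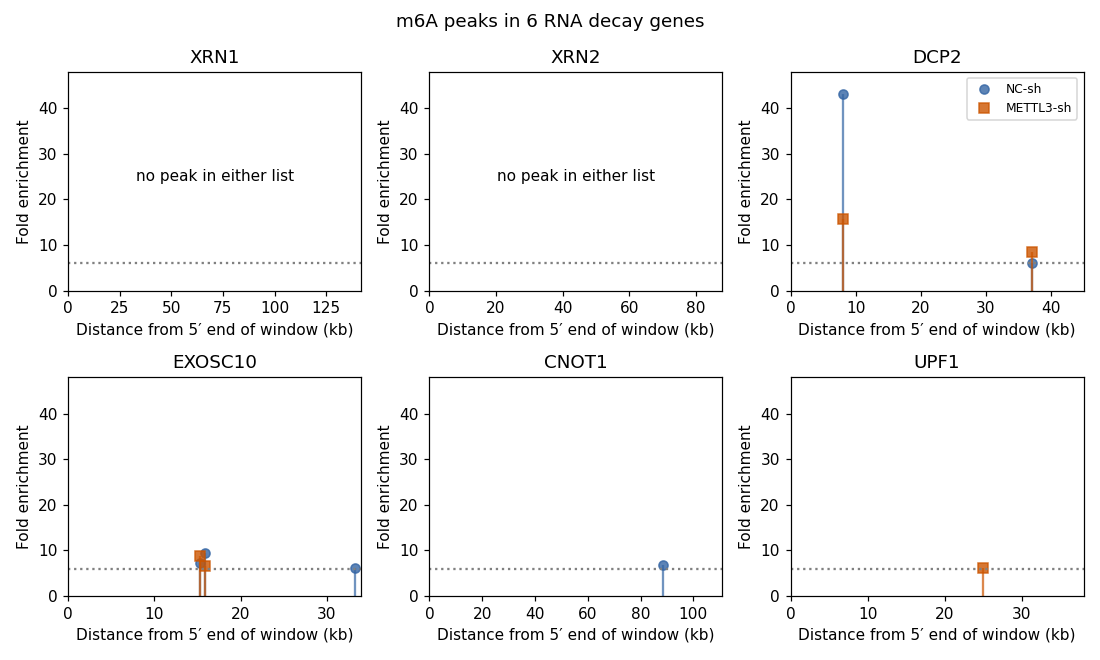
Fold enrichment (y axis) of each deposited peak against the distance of its summit from the 5′ end of the gene window (x axis, kb), for NC-sh (circles) and METTL3-sh (squares), the dotted line marking the limit of 6. The NC-sh peak of DCP2 at 43.1 stands far above the others, and XRN1 and XRN2 are empty.

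DCP2, on chromosome 5 from 112312 to 112357 kb, carried the peak with the highest fold enrichment of the 6 genes in both libraries, and of the 4 pairs it differed most between them in fold enrichment. This peak spanned chr5:112319780-112320321 in NC-sh and chr5:112319696-112320327 in METTL3-sh, with its summit 8.10 kb and 8.07 kb from the 5′ end of the window. Fold enrichment was 43.1 in control cells and 15.7 after METTL3 knockdown, a log2 ratio of -1.45. The NC-sh value ranked 274th among 9441 peaks and the METTL3-sh value 2962nd among 12252. A lower log2 ratio was found in 83 of 6863 pairs (1.21%), a pair being an NC-sh and a METTL3-sh peak that overlapped no further peak. MeRIP reads at the summit did not follow this difference. They numbered 339 in NC-sh (95% Poisson interval 303.9 to 377.1) and 387 in METTL3-sh (349.4 to 427.5), a log2 ratio of 0.19 (exact conditional interval -0.023 to 0.41), against a median of 0.13 over all pairs. The local expectation was 1.60 in control cells and 8.0 after knockdown, 5.0-fold higher, and only 1.19% of pairs had a larger log2 ratio. The lower fold enrichment of DCP2 in METTL3-sh thus lay in the Input term of the ratio and not in the MeRIP term. Such a pattern was not rare among pairs whose fold enrichment was at least halved, since reads were equal or higher in METTL3-sh in 114 of those 328 (34.8%).

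The Input reads behind the NC-sh expectation are few if 1 step of 0.2 is 1 Input read within 1 kb. This holds for fragments of 200 bp, an assumption that was not tested on these peaks. Expectations from 1 to 4 lay within 0.01 of a multiple of 0.2 in 82.4% of peaks in NC-sh and in 77.8% after knockdown. On this reading, 1.60 would rest on 8 Input reads, and their counting error alone would place the NC-sh fold enrichment between 27.0 and 66.2. The METTL3-sh value would lie between 11.9 and 21.1 if 8.0 were 40 reads in 1 kb, and these bounds do not overlap those of NC-sh. It would lie between 8.45 and 31.8 if 8.0 were 8 reads directly over the summit, and those bounds do overlap the ones of NC-sh.

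The second DCP2 peak lay toward the 3′ end, with summits 7.89 kb and 7.86 kb from it. It spanned chr5:112348974-112349261 in NC-sh and chr5:112348994-112349293 in METTL3-sh. Here fold enrichment was 6.10 in control cells, close to the limit of the list, and 8.51 after knockdown, a log2 ratio of 0.48. Reads at the summit were 146 (123.3 to 171.7) and 208 (180.7 to 238.3), a log2 ratio of 0.51 (0.20 to 0.83), with a local expectation of 7.0 and 8.0. The expectation was thus 1.14-fold higher in METTL3-sh here, against 5.0-fold at the 5′-side summit, 29009 bp away in NC-sh. The reason for this difference between the summits was not tested. The ratio of reads lay above that of 81.3% of all pairs. Both DCP2 peaks thus had more reads in METTL3-sh, at the 5′-side peak within counting error. Fold enrichment was lower at the 5′-side peak and higher at the 3′-side peak. The read ratio of the 5′-side over the 3′-side peak, in which a scaling factor common to a library cancels, was 2.32 in control cells and 1.86 after knockdown. Its ratio between libraries was 0.80 (exact interval 0.61 to 1.04), a difference within counting error. The NC-sh list held the numbers 11577 to 11580 around and in DCP2 without a gap, so that these 2 peaks were all that had been numbered there. In METTL3-sh 1 number was missing, between the 3′-side peak and a summit 538407 bp beyond the window. The peak left out may therefore have stood outside DCP2. In RefSeq's annotation of GRCh38.p14, MCC overlaps DCP2, and whether the libraries keep the strand is not given in the sources used here, so that reads from both genes may not be separable where they overlap.

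EXOSC10, on chromosome 1 from 11126 to 11160 kb, had 3 NC-sh peaks and 2 METTL3-sh peaks. A pair of neighbouring peaks near the middle of the gene was called in both libraries, and its balance differed between them. The 5′-side peak spanned chr1:11144606-11144849 in NC-sh and chr1:11144606-11144865 in METTL3-sh, with its summit 15.27 kb from the 5′ end in both. The 3′-side peak spanned chr1:11144018-11144292 and chr1:11144041-11144298, at 15.85 kb and 15.84 kb. In NC-sh the 3′-side peak was the higher, with a fold enrichment of 9.37 against 7.23. In METTL3-sh the 5′-side peak was the higher, with 8.79 against 6.46. Reads at the summit changed order in the same way, but of the 2 peaks only the 5′-side one differed between libraries beyond counting error. The 5′-side peak had 76 reads in NC-sh (59.9 to 95.1) and 123 in METTL3-sh (102.2 to 146.8), a log2 ratio of 0.69 (0.27 to 1.13). The 3′-side peak had 100 (81.4 to 121.6) and 90 (72.4 to 110.6), a log2 ratio of -0.15 (-0.58 to 0.27).

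The local expectation was nearly the same at both EXOSC10 summits within a library, 2.58 and 2.60 in NC-sh and 4.2 and 4.22 in METTL3-sh. It was thus 1.63-fold and 1.62-fold higher in METTL3-sh, and the change in order of the 2 peaks lay in the MeRIP signal of the 5′-side peak. Scaled pileup there rose from 24.87 in control cells to 44.72 after knockdown. At the 3′-side summit it stayed level, 32.73 for control cells against 32.72 after knockdown. The lower fold enrichment of the 3′-side peak after knockdown thus lay in the local expectation. The read ratio of the 5′-side over the 3′-side peak was 0.76 in control cells and 1.37 after knockdown. Its ratio between the libraries was 1.80 (exact interval 1.18 to 2.75), larger than counting error. The shift was of a size also seen elsewhere. Among 249 neighbouring pairs with NC-sh summits within 1 kb in the whole lists, the median shift was 0.37 on the log2 scale, and 13.7% shifted by at least the 0.85 of EXOSC10. The spread between replicate libraries is unknown for either number.

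**Figure D2:**
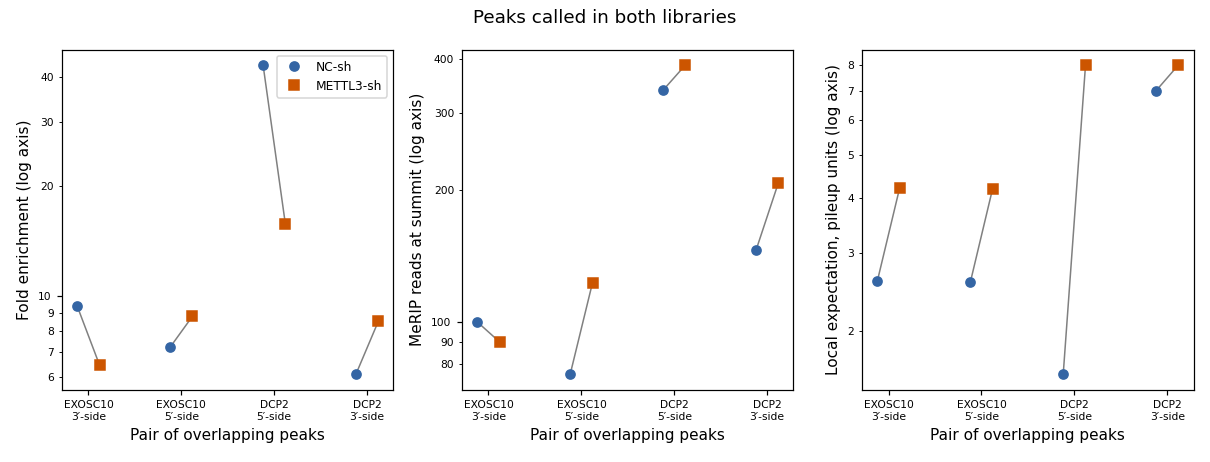
Fold enrichment, MeRIP reads at the summit and local expectation (y axes, log scale) of the 4 pairs of peaks called in both libraries (x axis), for NC-sh (circles) and METTL3-sh (squares). At the 5′-side peak of DCP2 fold enrichment is lower in METTL3-sh while reads are 339 and 387 and the expectation is 1.60 and 8.0.

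The remaining EXOSC10 peak was called in NC-sh, at chr1:11126681-11126893, and its summit lay 0.77 kb from the 3′ end of the window. It was the weakest of the 11 peaks by reads, with 53 at the summit (39.7 to 69.3), a fold enrichment of 6.12 and a −log10 q of 8.33. METTL3-sh had no peak there. Its nearest deposited peaks, numbered 146 and 152, lay 633.4 kb apart with 5 numbers missing, so that a called peak left out of the list could not be told apart from no call. The 3 NC-sh peaks bore the consecutive numbers 108, 109 and 110, so that no other numbered peak stood between them. RefSeq places EXOSC10-AS1, an antisense RNA, over part of the gene, with the same limit on strand as for DCP2.

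CNOT1, on chromosome 16 from 58553 to 58664 kb, had 1 peak, in NC-sh. It spanned chr16:58575496-58575709, with its summit 22.57 kb from the 3′ end of the window, the gene being read from the minus strand according to textbook knowledge. The summit had 264 reads (233.1 to 297.8) over a local expectation of 12, and fold enrichment was 6.72. In METTL3-sh the peaks on either side were numbered 6838 and 6843 with 4 numbers missing, so that the absence of a deposited peak does not show a loss. CNOT1 also hosts the small nucleolar RNAs SNORA46 and SNORA50A in RefSeq, and whether the peak lies in an exon was not analysed here.

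UPF1, on chromosome 19 from 18942 to 18980 kb, also had 1 peak, in METTL3-sh. It spanned chr19:18966784-18967075 with its summit 24.9 kb from the 5′ end and 13.1 kb from the 3′ end. The peak held 1077 reads at the summit (1013.6 to 1143.3), more than any other peak of the 6 genes, and its −log10 q was 164. Its fold enrichment of 6.04 was the lowest of the 11 peaks, as the local expectation by which it is divided was 64.0, higher than at 97.7% of METTL3-sh peaks. The place therefore had high Input signal. In NC-sh, peaks 6903 and 6912 flanked the window, with summits 53797 bp before and 307923 bp after it and 8 numbers missing between them. As the METTL3-sh value lay just above the limit of 6, the gene was listed by a narrow margin.

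**Figure D3:**
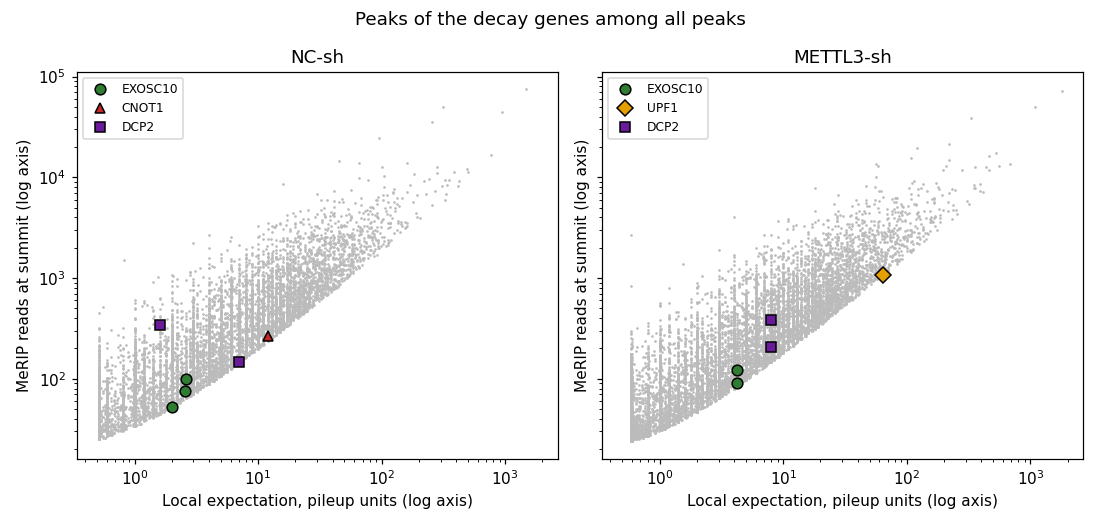
MeRIP reads at the summit (y axis, log scale) against local expectation in pileup units (x axis, log scale) for all peaks of NC-sh (left) and METTL3-sh (right) in grey, with those of the decay genes marked. The lower edge of each cloud is the limit on fold enrichment. On or near it lie the UPF1 peak (6.04), the CNOT1 peak (6.72) and the 3′-side DCP2 peak in NC-sh (6.10). The EXOSC10 peak at the 3′ end in NC-sh (6.12) and its 3′-side peak in METTL3-sh (6.46) lie there too. The 5′-side DCP2 peak (43.1 and 15.7) lies above the edge.

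Compared with all deposited peaks, those of the decay genes mostly had a low fold enrichment. In NC-sh 5 of 6 had a fold enrichment below the median of the list, with a median of 6.98 against 10.2, and in METTL3-sh 4 of 5, with a median of 8.51 against 9.79. A fold enrichment under 7 was found in 3 of 6 NC-sh peaks and 2 of 5 METTL3-sh peaks, against 16.6% and 17.6% of the whole lists. Reads at the summit and −log10 q did not follow this in METTL3-sh. The median was 208 reads against 132 in the list and the median −log10 q was 42.8 against 34.2, with 3 of 5 peaks above the list for both. In NC-sh the medians were 123 against 169 reads and 20.8 against 39.8, with 2 of 6 above. The peaks were short, below the median length in 5 of 6 and 4 of 5. In METTL3-sh the local expectation was above the list's median of 3.0 at 5 of 5 peaks, whereas in NC-sh it was above the median of 4.0 at 2 of 6. No test was made on so few peaks, which share genes and libraries.

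By overlap of at least 1 bp, 4 of 6 NC-sh peaks had a METTL3-sh peak (66.7%) and 4 of 5 METTL3-sh peaks had an NC-sh peak (80.0%). The peaks without a counterpart were those of EXOSC10 at the 3′ end and CNOT1 in NC-sh and that of UPF1 in METTL3-sh. Among all peaks, 23.8% of the NC-sh list and 41.4% of the METTL3-sh list had no counterpart, against 2 of 6 and 1 of 5 peaks of the decay genes. Of the 4 pairs, fold enrichment was at least halved in METTL3-sh in 1, the 5′-side peak of DCP2, against 4.78% of all pairs, and at least doubled in none, against 9.40%. Summits of the 4 pairs lay between 4 and 30 bp apart.

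The 4 pairs did not differ in one direction. Their log2 ratios of fold enrichment ran from -1.45 to 0.48 with a median of -0.13, against a median of 0.13 and quartiles of -0.27 and 0.54 over all 6863 pairs. Their log2 ratios of reads ran from -0.15 to 0.69 with a median of 0.35, against 0.13 with quartiles of -0.14 and 0.41. After knockdown the local expectation was higher at all 4, by 0.19 to 2.32 on the log2 scale, against a median of 0.20 over all pairs. These pairs come from EXOSC10 and DCP2 alone, and a peak lowered to a fold enrichment of 6 or less could not enter a pair. Abundance of the 6 mRNAs was not analysed here, and with 1 library per condition a difference in Input depth, in RNA amount or in methylation cannot be told apart.

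**Figure D4:**
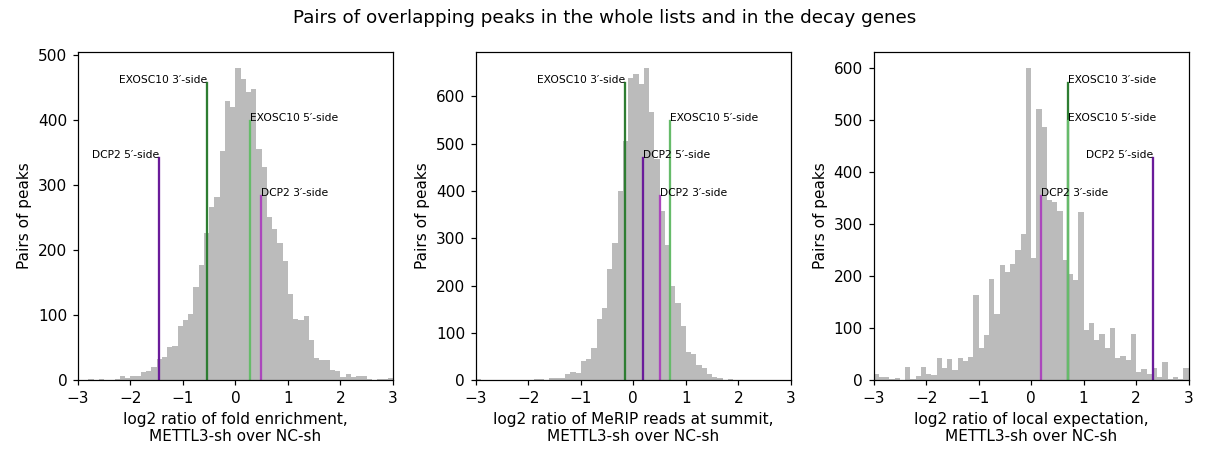
Numbers of pairs (y axis) by log2 ratio, METTL3-sh divided by NC-sh (x axis), for fold enrichment, MeRIP reads at the summit and local expectation in all 6863 pairs (grey, values beyond 3 drawn at the edge), with the 4 pairs of EXOSC10 and DCP2 as coloured lines. The 5′-side peak of DCP2 is in the tail for fold enrichment (-1.45) and local expectation (2.32) and near the middle for reads (0.19).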

How the data were processed

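The labels list 1 Input and 1 MeRIP library per condition. Each MeRIP library came with 1 deposited peak list. The submitters' processing notes name bcl2fastq, TopHat2 2.0.13, MACS2 2.1.0.20151222 and hg19. Filters after peak calling are not given in the sources used here. The deposited pileup is a signal, the deposited fold enrichment a ratio with a pseudocount of 1, the −log10 p and −log10 q, as deposited, were given by the peak caller within a library, and positions and lengths are in bp.

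Gene windows in hg19 were rounded to 1 kb. Members and gene lists were chosen with earlier results of these data known, and all peaks of all 6 genes are named. Gene orientation was taken from RefSeq for 5 genes and from textbook knowledge for CNOT1, and overlapping genes from RefSeq (GRCh38.p14) by name only. No hg19 annotation or genome was used, so exons, UTRs, sequence under peaks and further decay genes were not analysed here.

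Reads were pileup divided by its step. The local expectation was solved from the ratio of pileup and fold enrichment, and a Poisson tail with it returned the deposited −log10 p within 0.01 for 11 of 11 peaks. Peaks were paired where each overlapped only the other. Read counts have exact Poisson intervals and read ratios exact conditional intervals (95%). Neighbouring pairs and missing peak numbers were examined after the values had been seen. Total library depth is not known. Overlap, pairing and step were tested on simulated data. Alternatives were stricter peak filters, other overlaps, other windows and other measures of height. Python 3.11.15, numpy 2.4.6, pandas 2.3.3, scipy 1.17.1 and matplotlib 3.10.9 were used.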

Additional observations from a re-analysis of the deposited data

How the results depend on the processing

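The number of peaks in the decay genes depended on the filter. With a −log10 q at or above the median of both lists (36.6), the NC-sh list kept 2 peaks and the METTL3-sh list 3. Of these, 1 of the 2 and 1 of the 3 overlapped a peak of the other list, from which no change in overlap can be read, and the median log2 ratio of fold enrichment was -1.45 in the 1 pair left. With a fold enrichment of at least 12, 1 peak remained in each library, the 5′-side peak of DCP2, so that the overlap was 100% in both directions and the log2 ratio again -1.45. The median log2 ratio of the pairs, -0.13, changed sign in 4 alternatives. It was 0.23 with windows widened by 2 kb, which added 1 pair beside CNOT1, 0.50 with pileup, 0.35 with reads at the summit and 0.31 with −log10 q in place of fold enrichment. The sign of this median was thus not stable over 4 pairs. Stricter overlaps (50% of both peaks, or summits within 100 bp) and membership by any overlap of peak and window changed no value. With 1 MeRIP library a condition, no replicate could be left out and no pairing tested. Precision is limited by 53 to 1077 reads at the summits and by unknown Input counts.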

Other observations

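A further peak lay just beyond the 3′ end of the CNOT1 window, with its summit 207 bp outside it in NC-sh (chr16:58552660-58552956) and 206 bp outside in METTL3-sh (chr16:58552637-58552951). Its fold enrichment was 6.14 and 7.21, with 224 and 284 reads at the summit and a local expectation of 11.1 and 13.5. In RefSeq, SETD6 overlaps CNOT1, so that the peak could not be assigned to either gene here.

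Near XRN1, a METTL3-sh peak at chr3:142171797-142172008 had its summit 4968 bp beyond the 5′ end of the window, on the side where RefSeq places ATR as the next protein-coding gene. It held 43 reads with a fold enrichment of 8.32 and overlapped no NC-sh peak. No other peak lay within 5 kb outside the 6 windows.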
